A study of Mus musculus with 6 samples.

Results

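Cystine import and glutathione metabolism were followed through 10 genes in mouse bone marrow derived macrophages given stearic acid or vehicle. The genes, taken by name from the 36333 listed, encode the cystine transporter Slc7a11, the synthesis enzymes Gclc, Gclm and Gss, and Cth, which supplies cysteine. The others encode the reductase Gsr, the peroxidases Gpx1 and Gpx4, and the degrading enzymes Chac1 and Ggct. Bone marrow of C57BL/6 mice, described as wild type, had been cultured for 7 days with 10 ng/mL M-CSF, the growth factor that drives macrophage differentiation. Cells replated at 250000 per well received 100 µM stearic acid, a saturated fatty acid, in 3 samples, or an equal volume of its ethanol vehicle in 3 samples, each for 24 h. Polyadenylated RNA was sequenced with a stranded kit. Whether the 3 samples of a group came from separate animals or cultures is not stated in the labels, and the p-values below refer only to the variation among these samples, which could be technical.

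Glutathione is the most abundant small thiol of cells and reduces peroxides and disulfides. Its supply is usually limited by cysteine, which enters macrophages largely as cystine through the exchanger formed by Slc7a11 (xCT) and Slc3a2, in exchange for glutamate. Glutamate-cysteine ligase and glutathione synthetase then build the tripeptide, glutathione reductase regenerates it with NADPH, peroxidases spend it, and intracellular cyclotransferases break it down. In macrophages the genes for import and synthesis are known targets of the transcription factors NRF2 and ATF4.

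Steps between low RPKM values placed the depth of the libraries at 58.0 to 80.8 M units, each a read or a read pair, so that 1 TPM corresponded to 19.1 to 27.7 of them per kilobase. TPM is a share of the library scaled for gene length, so a difference is relative to all other transcripts. Among 10 macrophage markers fixed as a list, all were detected, and their summed level was 29375, 23799 and 25964 TPM in stearic acid replicates 1 to 3, against 33147, 34005 and 33317 TPM in vehicle replicates 1 to 3. Most of that sum was Lyz2. In this list 4 genes fell (Adgre1, Fcgr1, Lyz2 and Itgam), 1 rose (Cd68) and 5 did not pass the test described below. Over all tested genes 11.9% fell and 12.8% rose. Summed levels of 7 dendritic cell markers were 0.840 to 1.30 TPM with stearic acid and 1.19 to 1.75 TPM with vehicle, and of 7 lymphoid markers 0.158 to 0.477 TPM with stearic acid and 0.225 to 0.501 TPM with vehicle, with 4 of the lymphoid genes at 0 in all libraries. The 7 erythroid and mast cell markers summed to 0.160 to 0.282 TPM with stearic acid and 0.0550 to 0.370 TPM with vehicle, 4 of them at 0 in all libraries. The 7 stromal markers summed to 1.18 to 2.91 TPM with stearic acid and 2.39 to 4.11 TPM with vehicle. The 11 neutrophil and progenitor markers summed to 27.9 to 41.2 TPM with stearic acid and 50.6 to 58.6 TPM with vehicle, most of it Cd34. In that list S100a8 rose and Cd34 fell, and Ly6g was at 0 in 3 of 3 stearic acid libraries and in 2 of 3 vehicle libraries. Kit, too low to be tested and named after its values were seen, went the other way from Cd34. It was at 1.05, 1.40 and 1.32 TPM with stearic acid, against 0.504, 0.504 and 0.390 TPM with vehicle. Several macrophage and progenitor markers moved with treatment, in both directions, and their part in the results below was not tested. In bulk RNA, fewer cells of a type and less RNA per cell cannot be told apart.

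Most of the genes that import cystine and make and recycle glutathione rose with stearic acid, as did the breakdown enzyme Chac1. The largest difference was in Slc7a11, whose mean level was 10.9 times that of vehicle, followed by Chac1 at 4.81 times. Gclc, Gclm, Gss and Gsr stood at 1.59 to 1.84 times the vehicle mean and Gpx4 at 1.17 times. Gpx1 and Ggct had means of 0.891 and 0.856 times those of vehicle and did not pass the test, and Cth was too low to be tested with the rest. The test was limma on log2(TPM + 1) over the 11551 genes that averaged 1 TPM or more, and a call means a Benjamini-Hochberg adjusted p under 0.05. Of the 10 genes 9 passed this filter, 7 were called higher and 0 lower, 2 did not pass at the threshold, and the median log2 fold change of the 9 was 0.66. Over all tested genes 12.8% were called higher, 11.9% lower and 24.7% in either direction, and the median was -0.03. The groups did not overlap in 7 of the 9 genes, as in 44.6% of all tested genes. The count of 7 was 5 without vehicle replicate 2, where Gclc and Gpx4 missed the threshold. In that fit 384 of all tested genes were called higher, against 1482.

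**Figure D1:**
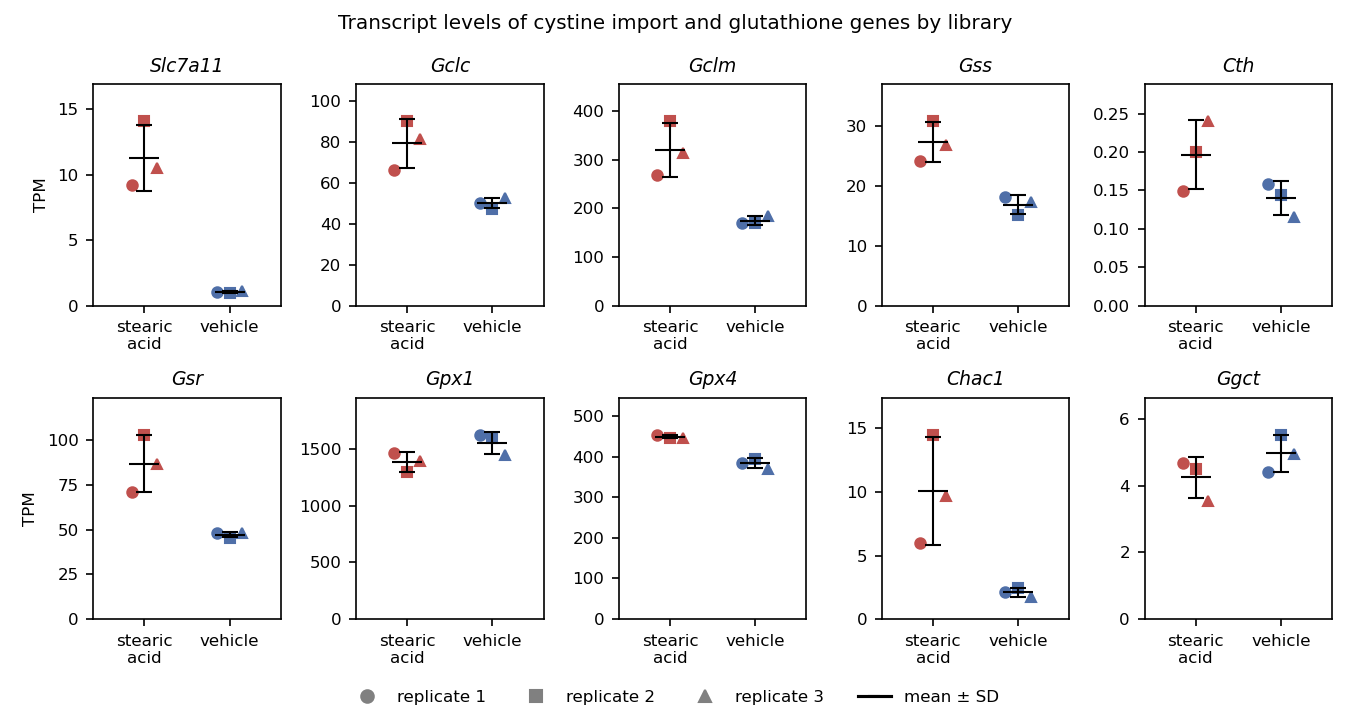
Level of each of the 10 genes in TPM (y axis, from 0, own scale per gene) in the 3 stearic acid and 3 vehicle libraries, with the mean and SD in black and the symbol giving the replicate number. In 7 panels every stearic acid library lies above every vehicle library, and in Cth, Gpx1 and Ggct the groups overlap.

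Slc7a11, the transport subunit of the cystine-glutamate exchanger (NCBI gene 26570, chromosome 3, 50364936 to 50499087, GRCm38), was at 9.17, 14.1 and 10.5 TPM in stearic acid replicates 1 to 3, against 1.04, 0.972 and 1.09 TPM in vehicle replicates 1 to 3. Every stearic acid library lay far above the vehicle libraries, which were close to the filter, and the means were 11.2 ± 2.53 TPM with stearic acid and 1.03 ± 0.0612 TPM with vehicle (SD, n = 3 each). On the log2 scale the rise was 2.57 (SE 0.14, 95% interval 2.26 to 2.88, limma adjusted p = 3.4e-05), the fourth largest rise of all tested genes. Because the vehicle level is near the pseudocount of 1 TPM, this value depends on the scale. It was 3.30 with a pseudocount of 0.1 TPM and 1.86 on log2(RPKM + 1), and the rise passed in all 13 alternatives tried.

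Slc3a2, the heavy chain that carries Slc7a11 and other amino acid exchangers to the membrane, was at 137, 194 and 166 TPM in stearic acid replicates 1 to 3, against 111, 101 and 102 TPM in vehicle replicates 1 to 3. It rose too (log2 fold change 0.65, SE 0.12, limma adjusted p = 0.0083; up to 0.058 without vehicle replicate 2 or 3). The ratio of Slc7a11 to Slc3a2 was 0.0669, 0.0724 and 0.0632 with stearic acid, against 0.00935, 0.00960 and 0.0107 with vehicle. These ratios did not overlap, and their log2 difference was 2.77 (two-sided exact permutation p = 0.1, the smallest that 3 against 3 allow; 0.15 adjusted over 3 such tests).

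Promoter windows, 250 bases before to 50 after an annotated start (RefSeq, GRCm38.p6), were found for 7 of the 10 genes. Gclc, Gsr and Cth had no window, so their promoters were not searched. Those of Slc7a11 (chr3:50443564-50443863, minus strand) and Chac1 (chr2:119350992-119351291, plus strand) are shown because these genes rose most. The annotated Slc7a11 gene extends upstream of the start in its window, as do the annotated Gclm and Ggct genes in theirs. Capitals mark matches, on either strand, to TGATGNAA, the composite site bound by ATF4 with C/EBP partners.
Slc7a11: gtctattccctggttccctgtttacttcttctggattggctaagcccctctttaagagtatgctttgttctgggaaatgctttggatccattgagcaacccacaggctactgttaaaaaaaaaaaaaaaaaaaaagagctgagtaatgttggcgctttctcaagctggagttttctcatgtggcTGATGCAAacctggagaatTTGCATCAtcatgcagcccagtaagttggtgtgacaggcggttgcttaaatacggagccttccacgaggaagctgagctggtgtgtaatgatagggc
Chac1: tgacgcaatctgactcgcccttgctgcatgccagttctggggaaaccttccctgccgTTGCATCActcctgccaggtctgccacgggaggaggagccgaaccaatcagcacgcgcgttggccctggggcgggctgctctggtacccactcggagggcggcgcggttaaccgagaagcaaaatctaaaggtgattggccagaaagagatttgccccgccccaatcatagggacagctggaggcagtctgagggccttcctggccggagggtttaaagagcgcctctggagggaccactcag
The Slc7a11 window held 2 matches in opposite orientation, at -66 to -59 and -47 to -40 from the start site (counted as 0), and the Chac1 window 1, at -193 to -186. Of all 32851 promoter windows 3.97% held at least 1 match and 23 windows held 2 or more. No match was found in the windows of Gclm, Gss, Gpx1, Gpx4 or Ggct. The other motif searched, TGACNNNGC, is the core of the antioxidant response element to which NRF2 binds with small MAF proteins, and 12.4% of all windows held it. It was in the Gclm window (chr3:122245307-122245606, plus strand) at -134 to -126, in the stretch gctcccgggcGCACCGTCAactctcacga. The Ggct window (chr6:54992818-54993117, minus strand) held it at -174 to -166, in caatagaaaaGCGACGTCAgtgggcggga, and at 5 to 13, in tctctgtgctTGACGCTGCtggcgtggat; capitals again mark the match. Of all windows 324 (0.986%) held 2 or more matches to TGACNNNGC. The matches of the 2 motifs did not overlap. A match describes the letters of the window and is not evidence of binding, and binding was not measured here.

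**Figure D2:**
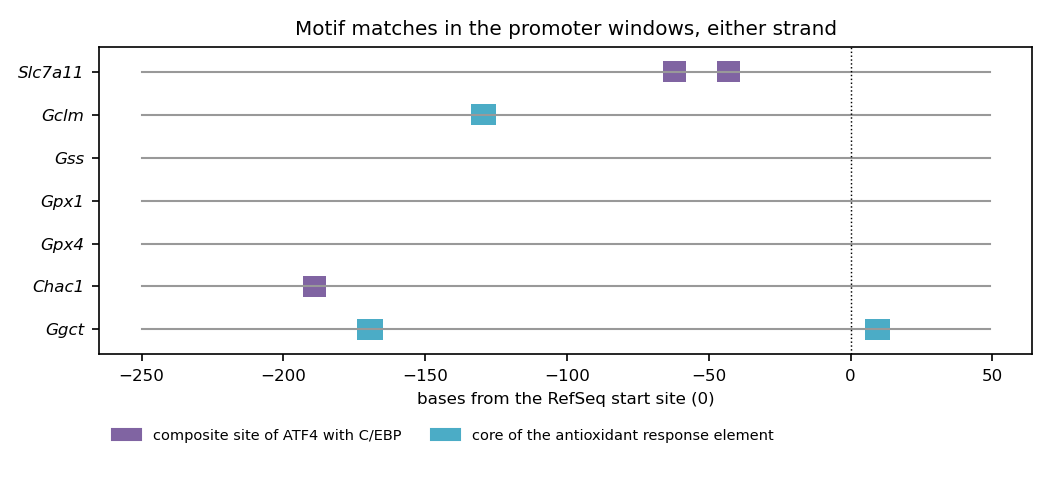
Position of the motif matches in the promoter windows, in bases from the RefSeq start site at 0 (x axis), with 1 line per gene and boxes for matches on either strand. Slc7a11 and Chac1 hold matches to the ATF4 composite motif, Gclm and Ggct to the antioxidant core, and Gss, Gpx1 and Gpx4 (whose 4 windows share a line) neither.

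The first and rate-limiting step of synthesis is carried by glutamate-cysteine ligase, whose catalytic subunit is Gclc and whose modifier subunit, which raises its activity, is Gclm. Gclc (gene 14629, chromosome 9, 77754535 to 77794489) was at 66.0, 90.0 and 81.5 TPM in stearic acid replicates 1 to 3, against 50.03, 47.4 and 52.4 TPM in vehicle replicates 1 to 3. Its lowest stearic acid value was above the highest vehicle value, a rise of 0.64 in log2 (SE 0.11, limma adjusted p = 0.0067; 0.053 without vehicle replicate 2).

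Gclm (gene 14630, chromosome 3, 122245487 to 122267215) was at 267, 378.5 and 312.5 TPM with stearic acid, against 169, 169 and 185 TPM with vehicle. The groups were separate, with a rise of 0.86 in log2 (SE 0.12, limma adjusted p = 0.0028). Within a library Gclm exceeded Gclc 4.05, 4.21 and 3.83 times with stearic acid, against 3.37, 3.56 and 3.52 times with vehicle. The ratio was thus higher in all 3 stearic acid libraries, by 0.21 on the log2 scale (two-sided exact permutation p = 0.1, the smallest possible; 0.15 adjusted over 3 tests).

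**Figure D3:**
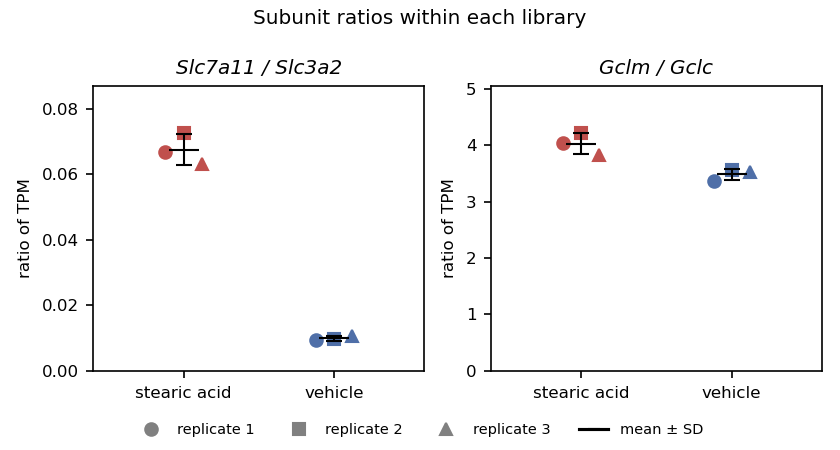
Ratio of TPM between partner subunits within each library (y axes, from 0) in the 3 stearic acid and 3 vehicle libraries, with mean and SD in black. Slc7a11 over Slc3a2 lies between 0.0632 and 0.0724 with stearic acid, above all vehicle libraries, and Gclm over Gclc between 3.83 and 4.21, also above them.

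Gss, glutathione synthetase, which adds glycine in the second step (gene 14854, chromosome 2, 155563181 to 155592810), was at 24.1, 30.7 and 26.8 TPM with stearic acid, against 18.1, 15.1 and 17.3 TPM with vehicle. Its groups were separate as well, with a rise of 0.66 in log2 (SE 0.10, limma adjusted p = 0.0051). The RefSeq annotation places other genes across Gclm, Gss and Gsr. None of these is listed under its RefSeq name in the data, so their levels were not seen. Whether strand was used in counting is not given in the sources used here, so reads of overlapping genes cannot be assigned with certainty.

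Cth, cystathionine gamma-lyase, releases cysteine from cystathionine at the end of transsulfuration (gene 107869, chromosome 3, 157894248 to 157925081). It was at 0.1497, 0.1999 and 0.2399 TPM with stearic acid, against 0.1589, 0.1446 and 0.1153 TPM with vehicle. The groups overlapped, as stearic acid replicate 1 lay below vehicle replicate 1, and on log2(TPM + 1) they differed by 0.07 (two-sided exact permutation p = 0.2). At these levels a kilobase of transcript had only a few reads per library.

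Of 21 listed genes of the methionine cycle, transsulfuration and cysteine catabolism 15 were tested, 1 rose and 4 fell, with a median of -0.17. Over all tested genes 12.8% rose and 11.9% fell. Got1, a cytosolic aspartate aminotransferase that also acts in cysteine catabolism, rose to 75.1 ± 5.49 TPM, against 57.9 ± 2.25 TPM with vehicle (log2 0.37). Csad, which decarboxylates cysteine sulfinate on the way to taurine, fell to 9.32 ± 3.11 TPM, against 15.8 ± 1.67 TPM (log2 -0.74). Mtr, methionine synthase (log2 -0.49), and Ethe1, a mitochondrial persulfide dioxygenase (log2 -0.24), also fell. The falls of Csad, Mtr and Ethe1 did not pass without stearic acid replicate 3 or any 1 vehicle library, and that of Ethe1 did not when stearic acid replicate 2 was left out (limma adjusted p up to 0.18). Got1 did not pass without vehicle replicate 2 or 3 (up to 0.062). Without stearic acid replicate 1 the list had 3 rises and 8 falls, without stearic acid replicate 2 it had 2 falls, and in the other leave-one-out fits and with no filter it had 0 falls. Over all tested genes the falls numbered 2787 without stearic acid replicate 1 and 355 with no filter, against 1374. They numbered 142 to 420 without stearic acid replicate 3 or any 1 vehicle library.

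Gsr, glutathione reductase, returns oxidized glutathione to the reduced form with NADPH (gene 14782, chromosome 8, 33653238 to 33698162). It was at 70.9, 103 and 86.7 TPM in stearic acid replicates 1 to 3, against 48.2, 45.5 and 47.98 TPM in vehicle replicates 1 to 3. The vehicle libraries lay close together and all stearic acid libraries were above them, with a rise of 0.85 in log2 (SE 0.12, limma adjusted p = 0.0034).

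Among 16 listed genes of NADPH supply 14 were tested, 4 rose and 3 fell (12.8% and 11.9% of all tested genes), with a median of 0.04. Pgd, an NADPH-making dehydrogenase of the pentose phosphate pathway, rose to 866 ± 86.2 TPM, against 562 ± 18.6 TPM with vehicle (log2 0.62, limma adjusted p = 0.0024). Malic enzyme Me1 rose to 22.0 ± 3.68 TPM, against 11.6 ± 0.724 TPM (log2 0.86), and Pgls, the lactonase before Pgd, rose by log2 0.28. The fallers were the NAD kinase Nadk (log2 -0.36), Aldh1l1, a folate enzyme (log2 -0.56), and the mitochondrial transhydrogenase Nnt (log2 -0.34). Without vehicle replicate 1 or 3 none of the 3 falls passed, and the fall of Aldh1l1 also missed without vehicle replicate 2, that of Nadk when stearic acid replicate 3 was left out and that of Nnt when any 1 library but stearic acid replicate 1 was left out (limma adjusted p up to 0.13). Pgls missed without stearic acid replicate 3 or any 1 vehicle library (up to 0.09).

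Gpx1 and Gpx4 are selenoproteins that spend glutathione, the first on soluble peroxides and the second on lipid hydroperoxides in membranes, where it is known to restrain ferroptosis. Gpx1 (gene 14775, chromosome 9, 108339080 to 108340342), the most abundant of the 10 transcripts, was at 1468, 1297 and 1393 TPM with stearic acid, against 1625, 1598 and 1446 TPM with vehicle. The groups overlapped, and the log2 fold change of -0.17 did not pass (95% interval -0.34 to 0.0020, limma adjusted p = 0.13; 0.041 without stearic acid replicate 1).

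Gpx4 (gene 625249, chromosome 10, 80047166 to 80056439) was at 454, 446 and 447 TPM with stearic acid, against 384, 395 and 371 TPM with vehicle. The 3 stearic acid values were nearly equal and all above vehicle, a rise of 0.23 in log2 (SE 0.06, limma adjusted p = 0.026). The call was lost without any 1 library other than stearic acid replicate 1 (limma adjusted p of 0.051 to 0.11), while the log2 value was 0.20 to 0.27 over all alternatives. RefSeq lists 2 pseudogenes named for Gpx4, with which reads may be shared. Neither is listed in the data under that name.

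Of 16 listed other peroxidases, glutaredoxins and glutathione-dependent enzymes 11 were tested, 2 rose and 0 fell (12.8% and 11.9% of all tested genes), with a median of 0.01. Esd, which hydrolyses S-formylglutathione, rose to 785 ± 183 TPM, against 350 ± 33.4 TPM with vehicle (log2 1.14, limma adjusted p = 0.0025). Prdx6, a peroxiredoxin that uses glutathione and reduces phospholipid peroxides, rose to 188 ± 43.6 TPM, against 84.97 ± 3.42 TPM (log2 1.11, limma adjusted p = 0.0022). Without stearic acid replicate 1 this list had 4 rises and 1 fall, in a fit where 2787 of all tested genes fell, against 1374. Among 16 tested selenoproteins and genes of selenocysteine incorporation 2 rose and 1 fell, with a median of 0.05. These counts were not above the 12.8% and 11.9% over all tested genes. Txnrd1, cytosolic thioredoxin reductase, rose to 292 ± 66.3 TPM, against 140 ± 3.91 TPM (log2 1.03, limma adjusted p = 0.0029), and Selenos, an endoplasmic reticulum protein, rose by log2 0.40. Selenop, the secreted selenium carrier, was at 809, 277 and 444 TPM with stearic acid, against 1012, 954 and 1019 TPM with vehicle (log2 -1.10, SE 0.30, limma adjusted p = 0.031). Stearic acid replicate 1 lay nearest to vehicle there. Selenop and Selenos missed the threshold when stearic acid replicate 3 or any 1 vehicle library was left out (limma adjusted p up to 0.11). Falls among the selenoprotein genes numbered 3 without stearic acid replicate 1 and 2 under median-of-ratios scaling, quantile normalization and the replicate block. Over all tested genes the falls in these fits numbered 2787, 1573, 1776 and 1997 in turn, against 1374.

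Chac1, a cyclotransferase that cleaves reduced glutathione in the cytosol and is a known target of ATF4 and CHOP (gene 69065, chromosome 2, 119351242 to 119354326), was at 5.98, 14.5 and 9.71 TPM in stearic acid replicates 1 to 3, against 2.14, 2.44 and 1.70 TPM in vehicle replicates 1 to 3. All stearic acid libraries were above vehicle but differed from each other by more than in any other of the 10 genes relative to the mean, at 10.1 ± 4.27 TPM against 2.09 ± 0.370 TPM. In log2 the rise was 1.77 (SE 0.24, 95% interval 1.22 to 2.33, limma adjusted p = 0.0030) and ranked 21 among the rises of all tested genes. It was 2.14 with a pseudocount of 0.1 TPM and 1.36 on log2(RPKM + 1).

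Ggct, gamma-glutamylcyclotransferase, acts on gamma-glutamyl amino acids and not on glutathione itself (gene 110175, chromosome 6, 54985095 to 54992960). It was at 4.70, 4.51 and 3.56 TPM with stearic acid, against 4.43, 5.54 and 4.96 TPM with vehicle. The groups overlapped and the log2 fold change of -0.19 did not pass (95% interval -0.45 to 0.07, limma adjusted p = 0.25). Chac1 was lower than Ggct in all 3 vehicle libraries and higher in all 3 stearic acid libraries.

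Of 18 listed genes of glutathione breakdown, export and mitochondrial import 13 were tested, 3 rose and 0 fell (12.8% and 11.9% of all tested genes), with a median of 0.09. Anpep, an aminopeptidase that splits cysteinylglycine outside the cell, rose to 384 ± 49.5 TPM, against 173 ± 11.2 TPM with vehicle (log2 1.14, limma adjusted p = 0.00033). The export pumps Abcc4 (log2 0.39) and Abcc1 (log2 0.33) rose too, but neither passed without stearic acid replicate 3 or any 1 vehicle library, nor Abcc1 when stearic acid replicate 2 was left out (limma adjusted p up to 0.10). Falls in this list numbered 3 without stearic acid replicate 1 and 1 under median-of-ratios scaling, quantile normalization and the replicate block. All tested genes had 2787, 1573, 1776 and 1997 falls in these fits in turn, against 1374. Chac2, the constitutive relative of Chac1, averaged 8.08 ± 0.535 TPM with stearic acid and 8.29 ± 0.216 TPM with vehicle, a difference that missed the threshold (log2 -0.04, limma adjusted p = 0.76), and it was named after its value was seen.

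The order of the mean levels, which TPM makes comparable between genes of different length, was Gpx1, Gpx4, Gclm, Gsr, Gclc, Gss, Slc7a11, Chac1, Ggct and Cth with stearic acid. With vehicle it was Gpx1, Gpx4, Gclm, Gclc, Gsr, Gss, Ggct, Chac1, Slc7a11 and Cth. Neighbours whose ranges overlapped were Gsr with Gclc in both groups and Slc7a11 with Chac1 with stearic acid. Slc7a11 and Chac1 thus moved past Ggct, and the other genes kept their places apart from Gsr and Gclc.

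Stearic acid replicate 2 departed most from vehicle and replicate 1 least. Over the 7 called genes, the median distance from the vehicle mean on log2(TPM + 1) was 0.58 in replicate 1, 1.11 in replicate 2 and 0.84 in replicate 3. Of these 7 genes 6 differed most in replicate 2 and least in replicate 1, as did 79.6% of all 2856 called genes, and Gpx4 was the exception, at 0.24, 0.22 and 0.22. Slc7a11 was 2.32, 2.89 and 2.50 above the vehicle mean in replicates 1, 2 and 3, and Chac1 1.18, 2.33 and 1.80 above it. The macrophage marker sum was lowest in replicate 2 too, and its part was not tested.

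**Figure D4:**
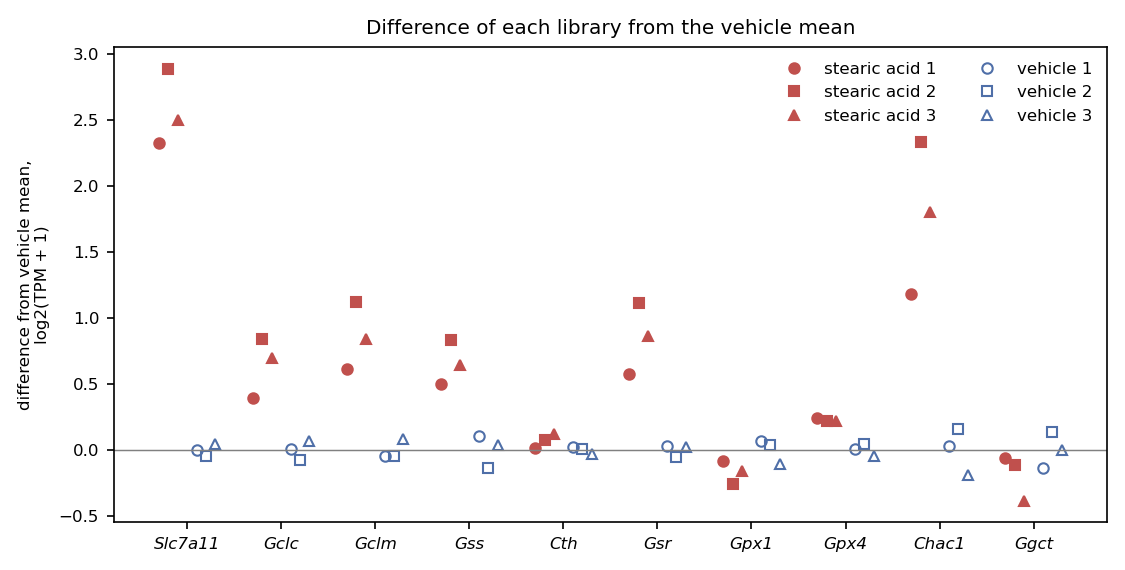
Difference of each library from the vehicle mean of the gene on log2(TPM + 1) (y axis), for the 10 genes (x axis), with filled red symbols for the 3 stearic acid and open blue symbols for the 3 vehicle libraries. Replicate 2 stands highest in Slc7a11, Gclc, Gclm, Gss, Gsr and Chac1, and the 3 stearic acid values of Gpx4 lie between 0.22 and 0.24.

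Of 9 listed carriers of cystine, cysteine and glutamate 2 reached the filter in both groups, Slc3a2 and Slc1a5, and both rose (12.8% of all tested genes did). Slc1a5, a glutamine carrier, rose by log2 0.44, and missed the threshold when stearic acid replicate 3 or vehicle replicate 2 or 3 was left out (limma adjusted p up to 0.079). Slc1a4, a carrier of small neutral amino acids including cysteine, was at 1.93, 4.56 and 3.08 TPM with stearic acid, against 0.937, 1.04 and 0.826 TPM with vehicle. Its vehicle mean was below the filter, which it passed only through its level with stearic acid, so its values are given without a test. The difference was 1.07 on log2(TPM + 1), 1.59 with a pseudocount of 0.1 TPM and 0.67 on log2(RPKM + 1).

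Transcripts of factors known to control these genes, and of regulators linked to those factors, were examined as a list of 12. It includes Trib3, itself a target of ATF4, which counts among the rises. Of the 11 that reached the filter in both groups 7 rose and 0 fell (12.8% and 11.9% of all tested genes), with a median of 0.42. In the fit without stearic acid replicate 1 there was 1 fall, and 2787 of all tested genes fell there, against 1374. The other gene, Maff, a small MAF partner of NRF2, was at 1.75, 3.16 and 2.66 TPM with stearic acid, against 0.826, 0.986 and 0.865 TPM with vehicle. It passed the filter only through the stearic acid group and was named after its values were seen. Trib3, a pseudokinase induced by ATF4, rose to 38.8 ± 11.96 TPM, against 5.85 ± 1.04 TPM with vehicle (log2 2.51, limma adjusted p = 0.00028). Ddit3, which encodes CHOP, rose to 66.6 ± 13.6 TPM, against 21.8 ± 1.42 TPM (log2 1.55, limma adjusted p = 0.00031), and Atf3 to 277 ± 20.99 TPM, against 155 ± 8.56 TPM (log2 0.83). Atf4 and Nfe2l2 were named after their values were seen. Atf4 was at 268, 438 and 346 TPM with stearic acid, against 155, 158 and 145.5 TPM with vehicle (log2 1.17, limma adjusted p = 0.0022). Nfe2l2, which encodes NRF2, was at 153, 138 and 146 TPM with stearic acid, against 156, 153 and 160.5 TPM with vehicle, and missed the threshold (log2 -0.11, limma adjusted p = 0.24), although its groups did not overlap. NRF2 is known to be controlled mainly at the level of the protein, which was not measured here.

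Among 16 listed genes of ferroptosis and lipid peroxide handling 14 were tested, 7 rose and 0 fell (12.8% and 11.9% of all tested genes), with a median of 0.29. Lpcat3, which places polyunsaturated fatty acids into phospholipids, rose to 73.8 ± 1.53 TPM, against 50.8 ± 2.04 TPM with vehicle (log2 0.53, limma adjusted p = 0.0019). Por, the cytochrome P450 reductase, rose to 283 ± 34.8 TPM, against 173 ± 12.6 TPM (log2 0.70), and Fth1, ferritin heavy chain, to 14005 ± 1300 TPM, against 9784 ± 399 TPM (log2 0.51). The count of 7 was 4 without stearic acid replicate 3 or vehicle replicate 1, and 3 without vehicle replicate 2 or 3. Over all tested genes the rises numbered 585, 684, 384 and 486 without these libraries in turn, against 1482. Falls numbered 2 without stearic acid replicate 1 and with the replicate block, and 1 under quantile normalization. In these fits 2787, 1997 and 1776 of all tested genes fell in turn, against 1374. With no filter on low values the rises numbered 2 (672 over all genes, against 1482), and Fth1 was not among them. Of the other genes named from the wider lists Slc1a5, Csad, Mtr, Ethe1, Abcc4, Abcc1, Pgls, Nadk, Aldh1l1, Nnt, Selenos and Selenop also missed the threshold there (limma adjusted p from 0.0503 to 0.12). Fth1 has many copies in the genome, so its reads are uncertain.

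**Figure D5:**
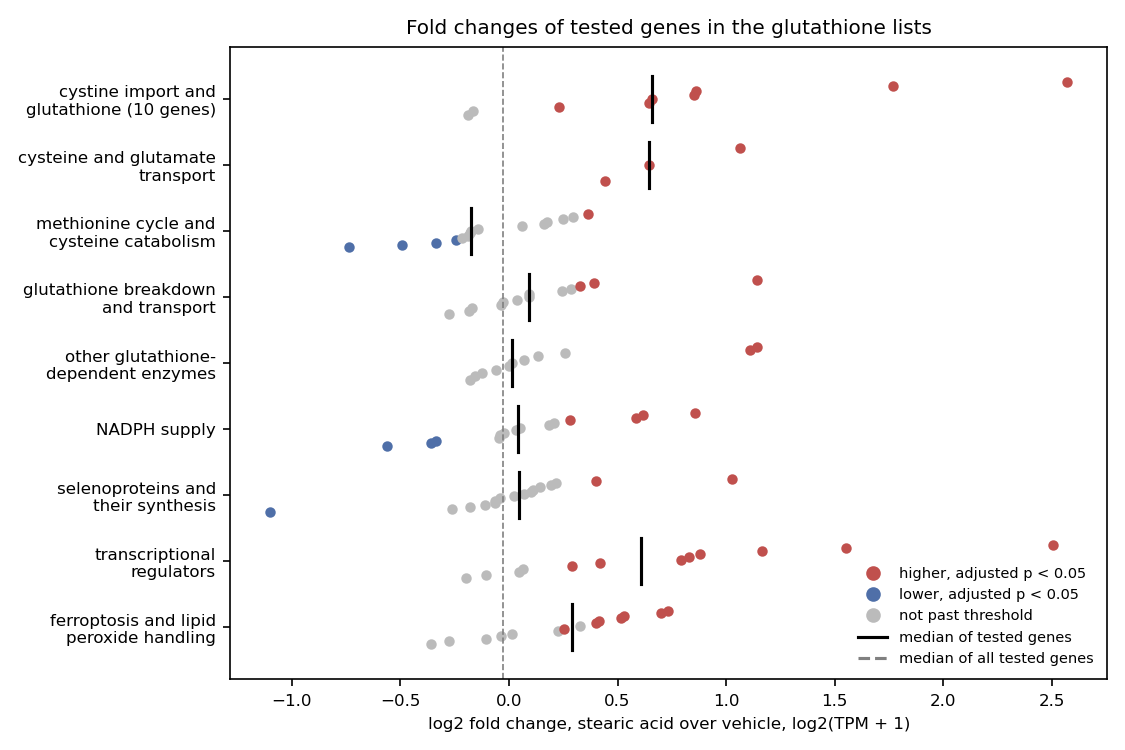
Log2 fold change of stearic acid over vehicle on log2(TPM + 1) (x axis) for each tested gene of the 10 studied genes and of 8 wider lists (rows), red where called higher, blue where called lower and grey where not past the threshold, with black bars for list medians. Slc1a4 and Maff are drawn red too, but they passed the filter only through the stearic acid group, so their colour is not a result. The studied genes and the transcriptional regulators have medians of 0.66 and 0.61 (0.42 for the regulators without Maff), against a median of -0.03 over all tested genes (dashed line).

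Among 9565 genes averaging 5 TPM or more, the 5 whose values over the 6 libraries lay nearest to Slc7a11 were Gdf15, Trib3, Procr, Mmp12 and Mmp13. Likeness was the root mean square difference between log2(TPM + 1) values centred on each gene's vehicle mean, and it was 0.11 for Gdf15, 0.17 for Trib3 and 0.25 to 0.33 for the others. Gdf15, a stress-induced cytokine, was at 31.3, 40.3 and 28.2 TPM with stearic acid, against 4.87, 4.43 and 5.32 TPM with vehicle. Genes picked for likeness to Slc7a11 share its separation of the groups by the way they were picked.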

How the data were processed

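RNA sequencing of polyadenylated RNA gave 1 table per library for 3 stearic acid and 3 vehicle samples of mouse bone marrow derived macrophages. Per the file headers, the authors deposited a TPM and an RPKM value for each of 36333 entries with an NCBI gene number. The submitters' processing notes name DRAGEN and the builds GRCm38 and mm10 (names for 1 assembly). For its version, annotation and counting rule, nothing is given in the sources used here. Gene numbers were matched to RefSeq GRCm38.p6 (97.3%), 27 date-like gene names were corrected by number, and 7 list symbols were found under older names. The tables hold no counts. limma 3.58.1 (R 4.3.3) with an intensity trend was fitted to log2(TPM + 1) of all genes averaging 1 TPM or more, with treatment as the only term, and p-values were adjusted by Benjamini-Hochberg over all 11551 genes. Exact permutation tests over 20 assignments were used for Cth and the 2 ratios. The procedure was tested on simulated data that gave both groups the spread of the vehicle libraries. In the data the stearic acid libraries spread more for genes such as Slc7a11 and Chac1, which the simulation does not cover. Depth was sought as the number that makes low RPKM values of single-exon genes whole reads. Between 62.0% and 68.5% of 186 to 230 values per library came out whole within 0.02, so no counts were rebuilt, and such depths bound counting error only.

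The 10 genes, the lists and the tests were chosen with earlier results of these data known. All 10 genes are named. From each wider list the called genes with the smallest p are named, up to 3 per direction, or all where 5 or fewer were called, together with Slc3a2 and the 5 genes nearest to Slc7a11. A called gene of the methionine and cysteine list is not reported here. Counting the carrier and regulator lists over genes that reach the filter in both groups was chosen after seeing the data. Alternatives were another pseudocount, other filters, RPKM, median-of-ratios and quantile scaling, a replicate block, and leaving out each library. Replicate numbers are shared between the groups, but deviations from the group means correlated at 0.07, 0.29 and 0.04 in same-numbered libraries, so the numbers were not taken as pairs.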

Additional observations from a re-analysis of the deposited data

How the results depend on the processing

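Slc7a11, Gclm, Gss, Gsr and Chac1 passed in all 13 alternatives, and no log2 fold change of the 9 tested genes changed sign in the alternatives that gave one (Ggct, under 5 TPM, had none with the higher filter). Without a filter on low values 672 genes over the whole table were called higher and 355 lower, against 1482 and 1374, and 7 of the 10 genes still rose. Gpx4 passed there only narrowly (limma adjusted p = 0.04999). Leaving out 1 library gave 384 to 2223 genes called higher and 142 to 2787 called lower, and among the 10 genes 5 to 7 rises and 0 to 1 falls, the fall being Gpx1 without stearic acid replicate 1. The counts given for the wider lists in such fits stand beside these shifts over the whole table. Over these fits the log2 fold change was 0.20 to 0.25 for Gpx4, 0.55 to 0.77 for Gclc and -0.22 to -0.12 for Gpx1. The difference in Cth was 0.30 with a pseudocount of 0.1 TPM, against 0.07. For these changes the cause was not tested. With the replicate number as a block, 1641 genes were called higher and 1997 lower and 7 of the 10 rose; only replicate 2 of the stearic acid group correlated best with its own number. Weighting of libraries was not run, as the weights did not converge. Low depth per kilobase limits Cth most, and 3 libraries a group limit the exact tests.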
